A study of Caenorhabditis elegans with 2 samples.

Results

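The 44 genes described here encode the vacuolar proton pump (V-ATPase) and the core autophagy machinery of the nematode Caenorhabditis elegans. They were examined for occupancy by LIN-14, a nuclear protein that sets the timing of first-stage (L1) larval development. Members were taken by name from the protein-coding genes of the Ensembl WBcel235 annotation. All genes called vha-, atg-, epg- or lgg- followed by a digit were included, and bec-1 was added. Of 19973 protein-coding genes on the nuclear chromosomes, 20 were V-ATPase genes and 24 were autophagy genes. The data were peak lists from chromatin immunoprecipitation sequencing (ChIP-seq), which maps where a protein sits on DNA. There was 1 group with 2 biological replicates and no second condition, so occupancy was compared between genes and not between conditions. All animals belonged to strain OP768, which carries the mutation unc-119(tm4063) and the insertion wgls768. The insertion holds a rescuing unc-119(+) copy and lin-14 fused at its C-terminus to the tags TY1, EGFP and 3xFLAG. Whole animals were used, as mixed-sex L1 larvae of 6 hours synchronised by starvation after bleaching, and whether they had been fed is not stated in the labels. The antibody is listed as lin-14 in one label and as anti-GFP in another. The strain has added lin-14 copies, tissues were not separated, and a peak at a gene does not show that the gene responds.

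The V-ATPase is a rotary pump with a cytosolic V1 sector, which splits ATP, and a membrane-embedded V0 sector, through which protons pass. It acidifies lysosomes and endosomes, and in the worm it also works at the surface of the intestine and in the excretory cell. Autophagy encloses cytoplasm in a double membrane, the autophagosome, which then fuses with the acidic lysosome, so that both sets of genes serve the same degradative route. In L1 larvae autophagy is known as part of the survival of starvation.

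Promoters of both gene sets held LIN-14 summits in a larger share of cases than promoters of all protein-coding genes. A gene was counted when the summit of a peak fell between −1000 and +200 bp of an annotated transcript start (5′ end, with minus for upstream) of that gene. The peaks were those of the authors' list filtered on the irreproducible discovery rate (IDR), a measure of agreement between replicates, and this list held 11507 peaks. Over all 19973 genes 4599 were counted, which is 23.0%. Among V-ATPase genes 10 of 20 were counted (50%, exact 95% binomial interval 27.2 to 72.8%), and among autophagy genes 15 of 24 (62.5%, interval 40.6 to 81.2%). Both intervals lay above 23.0% and overlapped each other widely. This is a description and not a test of enrichment, since members and lists were chosen with earlier results of these data known. Under 2 other rules the V-ATPase interval took in the share of all genes. With each summit given to the nearest 5′ end the V-ATPase share was 45% (interval 23.1 to 68.5%) against 28.1% of all genes, and with summits in the window of 1 gene only it was 35% (15.4 to 59.2%) against 15.9%. The difference between the sets was not tested, and its direction depended on the rule. With the window from −2000 to +500 bp the shares were 70% for V-ATPase and 66.7% for autophagy genes, against 29.7% of all genes. With all peaks called on the pooled replicates they were 65 and 62.5%, against 31.7%. In both of these settings the V-ATPase share was the higher one. With the top peaks of replicate 2 alone the shares were 60 and 58.3%, against 23.9%. A requirement for top peaks in both replicate lists gave 55 and 54.2%, against 21.1%, and the 5′-most end of each gene alone gave 50 and 54.2%, against 20.9%. The intervals cover counting of genes only and treat genes as independent, although neighbours can share a peak.

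**Figure D1:**
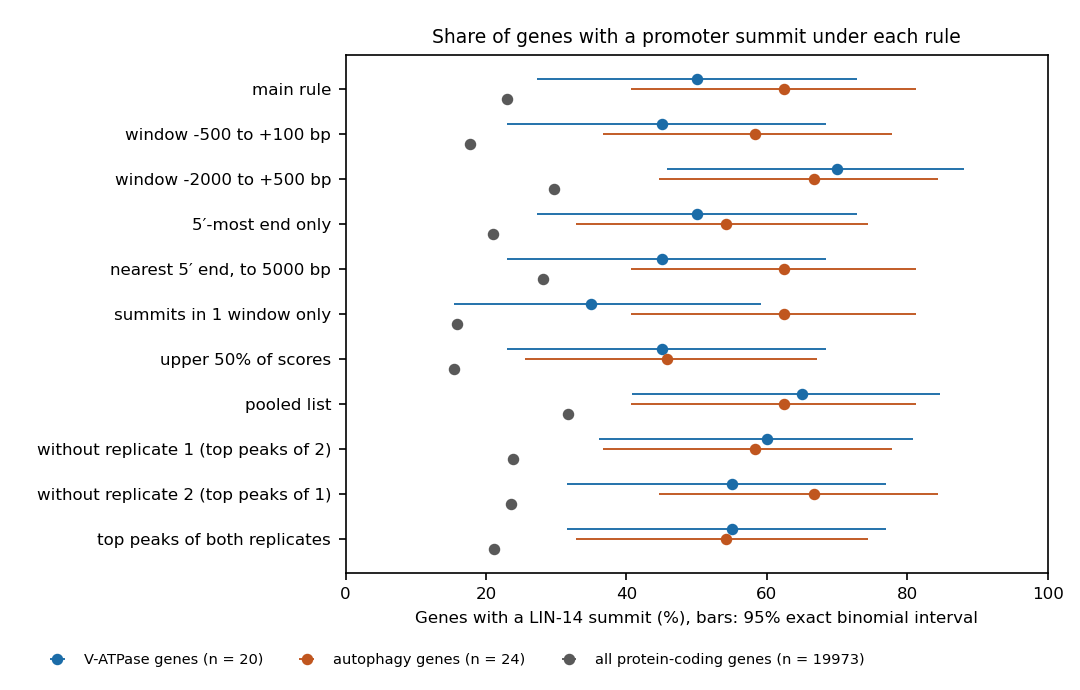
Share of genes with a LIN-14 summit (x axis, percent) under the main rule and 10 alternatives (y axis) for V-ATPase, autophagy and all protein-coding genes, with 95% exact binomial intervals as bars. The points of both gene sets lie to the right of the point for all genes under each rule, and the order of the sets changes between rules.

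Each peak carries a score, the strength given by the authors' peak caller, which ranks peaks within a list and is not a count of reads. Scores of the IDR-thresholded list ran from 147.478 to 13287.5 with a median of 358.7. When each gene was represented by the strongest summit in its window, the median score was 1017 for the 10 V-ATPase genes (306 to 2782) and 775 for the 15 autophagy genes (151 to 3985), and it was 526 over the 4599 genes. Scores above 526 were found at 9 of the 10 V-ATPase genes and at 9 of the 15 autophagy genes. The V-ATPase median was not a stable value, since it fell to 781 with the window from −500 to +100 bp, which leaves out vha-13.

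Sequence at the summits was read from the RefSeq copy of WBcel235, within 100 bp on either side. Inspection of member summits showed a string made of GCAAA, any 2 bases and CGCTC at 5 of the 28 member summits (17.9%), found at 2 V-ATPase and 3 autophagy genes. It was searched on both strands and was chosen after these sequences had been seen, so its share among members is a description only. Over all 11507 peaks it occurred at 84 (0.73%), over the 4683 peaks with a promoter summit at 75 (1.60%), and in windows 300 bp to either side of the summits at 0.126%. The elements are shown with 10 bp on each side, because they are shared by genes of both sets, and capitals mark the string. All are written 5′ to 3′ on the strand that carries the string, which is plus for epg-4 (chrIII:7181969-7182000), vha-14 (chrIII:9507951-9507982) and vha-8 (chrIV:6790584-6790615), and minus for atg-9 (chrV:349245-349276) and atg-16.1 (chrX:4462586-4462617).
epg-4: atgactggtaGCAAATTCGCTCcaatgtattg
vha-14: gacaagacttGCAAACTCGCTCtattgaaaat
vha-8: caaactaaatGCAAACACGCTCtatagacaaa
atg-9: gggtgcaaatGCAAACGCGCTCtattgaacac
atg-16.1: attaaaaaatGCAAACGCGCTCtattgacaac
The string started between −31 bp (vha-8) and 13 bp (atg-9) from the summit on the plus strand.

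A planned search looked for CACGTG, the E-box core that is read by HLH-30, a regulator of autophagy and lysosome genes, and by other bHLH factors. It was found at 4 of the 28 member summits (14.3%), at atg-9, epg-7, atg-13 and epg-5 among 18 autophagy summits and at none of the 10 V-ATPase summits. Among all peaks 7.40% held it, among peaks with a promoter summit 6.98% and in the flanking windows 2.92%. With counts this small, no difference between the sets was read from CACGTG, and none was tested. The hexamer ACGCAG was taken because, with member peaks left out, its share at summits exceeded that in the flanks by the highest ratio of all hexamers held by at least 10% of peaks. It was found at 15.4% of all peaks, 18.7% of promoter peaks and 3.72% of flanks. Members held it at 6 of 28 summits (21.4%), namely vha-1, vha-12 and vha-15, lgg-1, lgg-2 and epg-4. The share among members was thus close to that of promoter peaks. In the 2 summits that held more than 1 of these strings, at epg-4 and atg-9, the matches did not overlap. The summits of epg-7, atg-9 and vha-12, which had high scores, are shown over 101 bp on the plus strand, with CACGTG (the first pair) or ACGCAG (the last) in capitals, at chrX:7334484-7334584, chrV:349192-349292 and chrX:4190699-4190799.
epg-7: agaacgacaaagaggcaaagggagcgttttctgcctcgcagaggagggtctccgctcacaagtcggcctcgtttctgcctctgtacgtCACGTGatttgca
atg-9: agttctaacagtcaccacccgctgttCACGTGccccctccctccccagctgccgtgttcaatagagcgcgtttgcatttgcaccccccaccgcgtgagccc
vha-12: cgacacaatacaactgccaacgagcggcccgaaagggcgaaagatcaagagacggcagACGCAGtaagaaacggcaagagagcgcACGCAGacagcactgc
The vha-12 window holds ACGCAG at 2 places, 8 and 35 bp from the summit. A match is a description of the sequence and not a binding site, and absence of a match says only that the letters do not occur in the window.

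Within the V-ATPase, LIN-14 summits were found at 7 of the 9 genes for the ATP-splitting V1 sector (77.8%, against 23.0% of all genes). The strongest was at vha-12, which encodes subunit B, with a peak on chromosome X from 4190543 to 4190957. Its summit lay at −345 bp and its score was 2782, rank 204 of 11507 (1514 in replicate 1 and 1260 in replicate 2). Next came vha-8, for stalk subunit E, with a peak on chromosome IV from 6790444 to 6790797, a summit at −449 bp and a score of 2299 (1331 and 985 in replicates 1 and 2). The third was vha-13, for the catalytic subunit A, with a peak on chromosome V from 14350979 to 14351373, a summit at −540 bp and a score of 2026 (1198 and 844). Both replicate lists gave these 3 genes in the same order. The vha-13 summit lay in an untranslated exon of cept-2, the next gene upstream on the same strand, which ends 226 bp before vha-13.

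The other V1 genes with a summit had lower scores. At vha-15, for the regulatory subunit H, the summit lay at −304 bp with a score of 1254 (replicates 707 and 549.5). At vha-9, for subunit F, it lay at −203 bp with 781 (478 and 313). At vha-14, for the shaft subunit D, it lay at −110 bp, the nearest of all V-ATPase summits to a 5′ end, with 566 (316 and 245). These 3 genes kept the same order in both replicate lists. The lowest score of the set was at vha-10, for stalk subunit G, with 306 at −412 bp (189.7 and 116), rank 6649, in an intron of trpp-8. The scores of the V1 sector thus spanned from near the top to below the middle of the list. The V1 genes without a promoter summit were vha-11, for subunit C, and vha-18, the second gene for subunit H. For vha-18 no peak of any of the 4 lists lay in the window, whereas its paralog vha-15 stood at rank 1093.

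Of the 9 membrane sector (V0) genes named vha-, 3 had a promoter summit (33.3%, against 23.0% of all genes). The highest score was at vha-1, one of the genes for the proteolipid ring, with a peak on chromosome III from 9780651 to 9780962, a summit at −448 bp and a score of 1411 (replicates 840.2 and 588). Scores at vha-17, for subunit e (655, replicates 357 and 310.4), and vha-16, for subunit d (652, replicates 373 and 293), could not be ordered, since each was higher in one of the replicates. None of the genes for the large subunit a that are named vha- (vha-5, vha-6 and vha-7) had one, nor had the ring genes vha-2, vha-3 and vha-4. The remaining gene for subunit a, unc-32, did have a summit at −179 bp (873, replicates 485 and 377). The accessory subunit genes vha-19 and vha-20 had none. The contrast between V1 and V0 depended on the rule and was not tested. With the window from −2000 to +500 bp, the V0 genes vha-2, vha-3, vha-5 and vha-6 were also counted, and no further V1 gene. With summits in the window of 1 gene only, the V0 genes vha-1 and vha-17 and the V1 gene vha-8 were lost.

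Some V-ATPase summits lay between divergent genes, in the windows of both. The vha-1 summit also lay at −452 bp of sqv-3, the vha-8 summit at −137 bp of C17H12.2 and the vha-17 summit at −292 bp of F49C12.12. Such a summit cannot be assigned to either gene. This concerned 3 of 10 V-ATPase genes and 0 of 15 autophagy genes, against 32.3% of all genes with a promoter summit. When summits in several windows were left out, 7 of 20 V-ATPase genes (35%) remained counted, beside 15 of 24 autophagy genes (62.5%) and 15.9% of all genes.

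**Figure D2:**
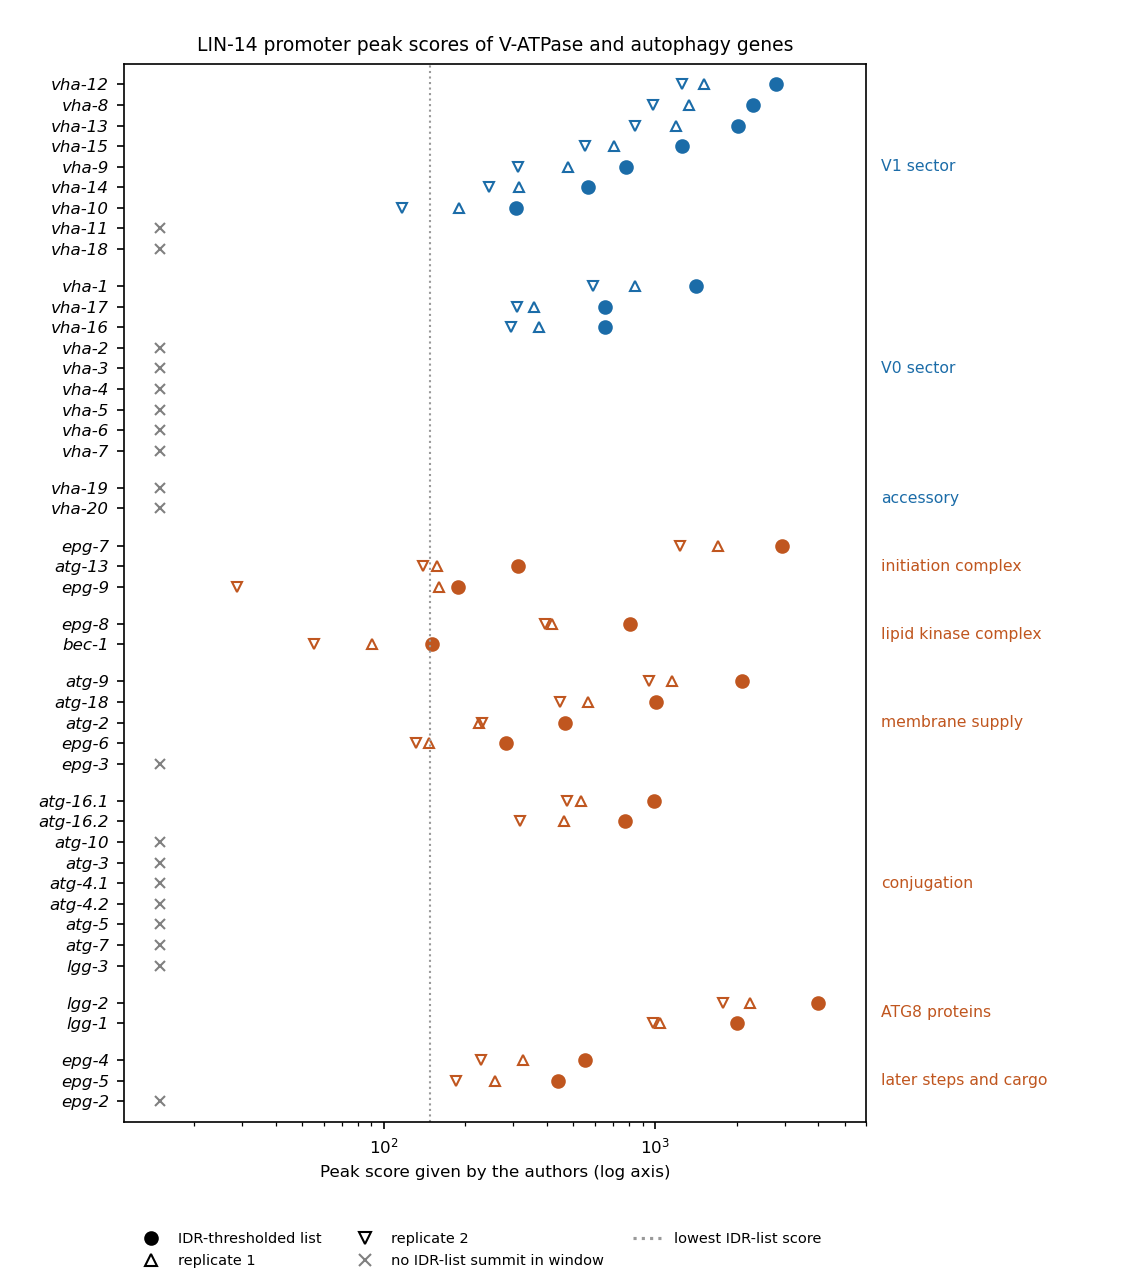
Score of the strongest LIN-14 promoter peak (x axis, log scale, no unit) of each of the 44 genes (y axis, grouped by role) in the IDR-thresholded list (filled circles) and in replicate 1 and replicate 2 (open triangles), with crosses for genes without a promoter summit. The highest scores are at lgg-2, epg-7 and vha-12, and crosses mark 6 of 9 V0 genes and 7 of 9 conjugation genes.

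In the autophagy set, summits were found at the 3 members that belong to the initiation complex, which starts autophagosome formation. Their scores differed widely, and 23.0% of all genes had a promoter summit. The kinase gene of that complex, unc-51, is outside the set by name and had none. At epg-7, for a scaffold protein of this complex, the peak on chromosome X from 7334282 to 7334749 had its summit at −180 bp and a score of 2924, rank 175 (replicates 1701 and 1234). Its sequence, with CACGTG 38 bp from the summit, is printed above. At atg-13, for the ATG13 subunit, the score was 313 at −393 bp (replicates 157 and 139.7). At epg-9, for the ATG101 subunit, the summit in the window had a score of 187 and replicates that differed widely (159.9 and 28.8). It lay 1620 bp inside the gene, in an intron, and was counted through a shorter transcript, from whose 5′ end it lay at −483 bp.

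Both members that belong to the lipid kinase complex, which marks the membrane where the autophagosome forms, had a summit, against 23.0% of all genes. The further genes of that complex, vps-34 and vps-15, which are outside the set by name, had none. At epg-8, for the ATG14 subunit, the summit lay at −231 bp with a score of 809 (replicates 417 and 391). At bec-1, for Beclin, it lay at −300 bp with 151 (replicates 90.6 and 55.1), rank 11343, just above the lowest score of the list. A stronger summit of 899 (replicates 511 and 396) lay outside the window at −1131 bp of bec-1.

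Among the 5 genes for membrane supply to the growing autophagosome, 4 had a summit (80%, against 23.0% of all genes). The strongest was at atg-9, which encodes a lipid scramblase in vesicles, at −143 bp with a score of 2083 (replicates 1151 and 945). At atg-18, for a WIPI protein that binds the lipid made by the kinase complex, the score was 1011 at −225 bp (566 and 446). The lipid transfer protein gene atg-2 had summits of 465 (224 and 231) and 243 (92.9 and 152), both in an intron and counted through a shorter transcript. These were the only member summits with a higher score in replicate 2. The other WIPI gene, epg-6, had one of 283 at −882 bp (147 and 132), and epg-3, for a VMP1 homolog, had none.

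The conjugation enzymes, which attach ATG8 proteins to lipid, had summits in the lowest share of the autophagy groups, at 2 of 9 genes. Both were genes for the ATG16 subunit, atg-16.1 at −122 bp with 992 (replicates 534 and 473) and atg-16.2 at −188 bp with 775 (459.9 and 317). The genes without one were atg-7 (E1-like enzyme), atg-3 and atg-10 (E2-like enzymes), atg-4.1 and atg-4.2 (proteases), atg-5 and lgg-3 (the ATG12 homolog). The 22.2% for this group was close to the 23.0% of all genes.

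The substrates of that conjugation, the ATG8 proteins that coat the autophagosome, are encoded by lgg-1 and lgg-2. Both genes had a promoter summit, against 23.0% of all genes. Each had 2 summits in its promoter, which was not particular to these genes. Among genes with a promoter summit, 736 of all 4599 had 2 or more. So did 3 of 15 autophagy genes (20%, with atg-2 as the third) and 0 of 10 V-ATPase genes. The highest score of the autophagy set was at lgg-2 and the next at epg-7, in both replicates. After these, lgg-1 and atg-9 could not be ordered, since atg-9 was higher in replicate 1 and lgg-1 in replicate 2. At lgg-2 the stronger peak lay on chromosome IV from 10935947 to 10936473, with its summit at −297 bp and a score of 3985, rank 65 (replicates 2230.15 and 1779). The second, from 10935275 to 10935756, lay in the first part of the gene, 388 bp inside, in an intron and at −476 bp of a shorter transcript, with a score of 3371, rank 111 (1869.9 and 1519). At lgg-1 the stronger summit was the more distant one, at −894 bp with 1999 (1041 and 978), and the nearer, at −192 bp, had 885 (478 and 428). The order of the summits at each gene was the same in both replicates. Genes of later steps had lower scores. They were epg-4, for an EI24 homolog, with 553 at −178 bp (326 and 229), and epg-5, for a tether that joins autophagosome and lysosome, with 439.5 at −265 bp (256 and 185). The cargo adaptor gene epg-2 had none.

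**Figure D3:**
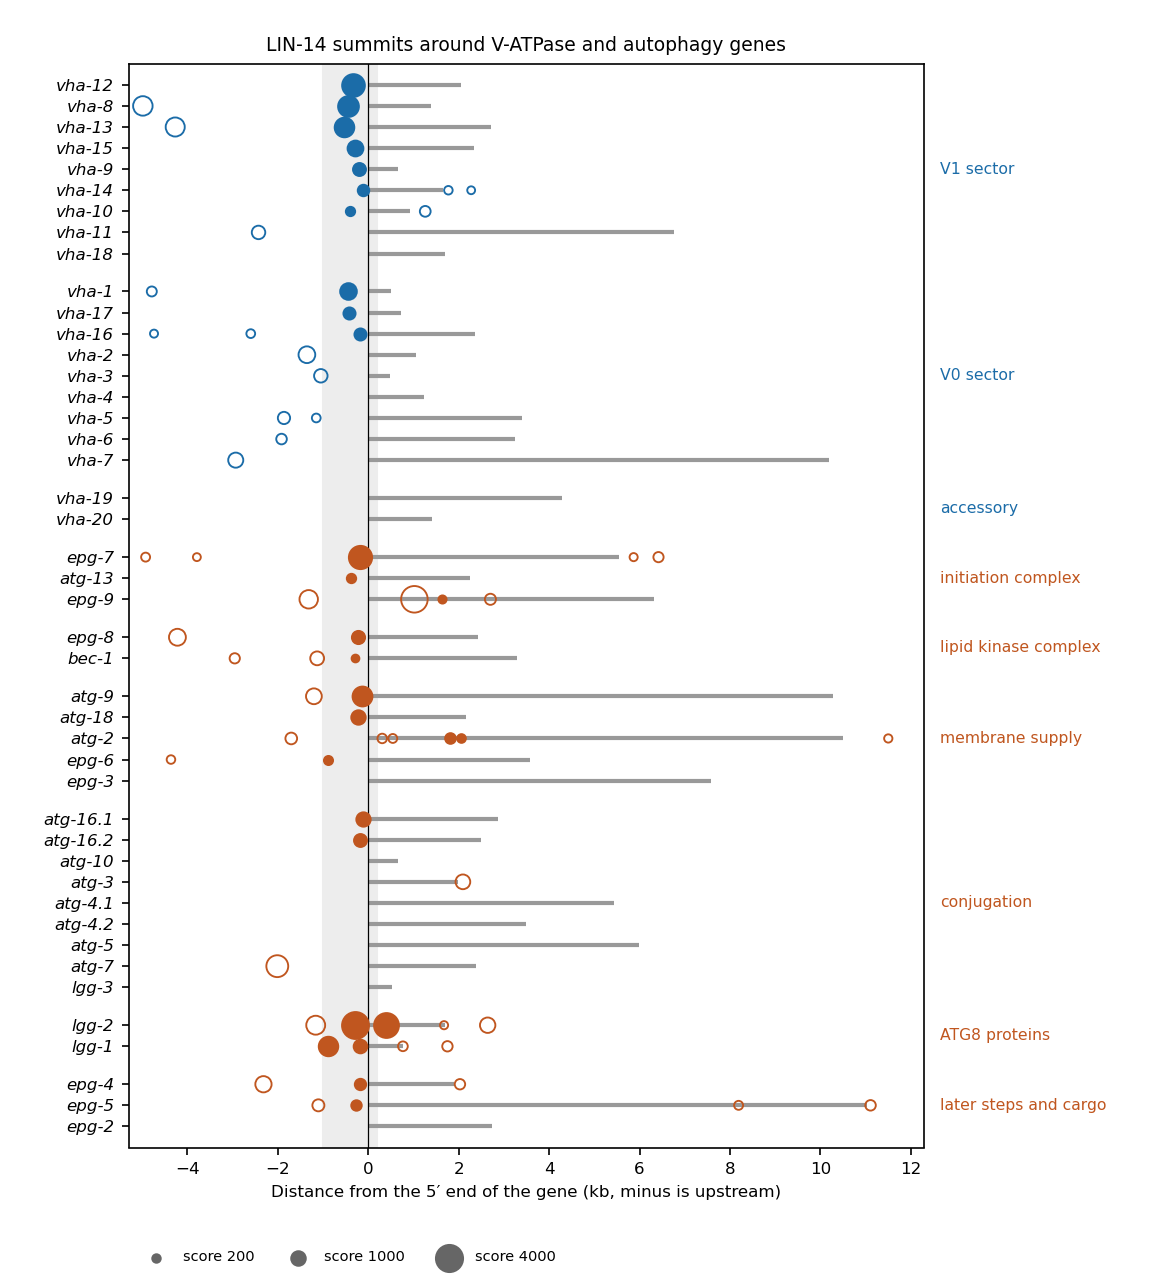
LIN-14 summits around each of the 44 genes, by distance from the 5′ end of the gene (x axis, kb, minus is upstream), with circle area rising with score, filled circles for summits counted in a promoter window and grey lines for the gene bodies. Grey shading marks −1 to 0.2 kb of the 5′-most end, where most filled circles lie, and the filled circles inside lgg-2, atg-2 and epg-9 belong to shorter transcripts.

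The strongest promoter summit lay upstream of the 5′ end at each of the 25 genes, as at 94.0% of all genes. Positions ran from −540 to −110 bp at V-ATPase genes (median −378.5 bp) and from −894 to −122 bp at autophagy genes (median −265 bp), while the median over all genes was −252 bp. From 100 to 600 bp upstream lay 10 of 10 V-ATPase summits and 13 of 15 autophagy summits (86.7%), against 59.6% over all genes. These limits enclose the whole V-ATPase range given above, so the shares are a description only, and a preference for this zone was not tested. Both autophagy summits more than 600 bp upstream, at lgg-1 (−894 bp) and epg-6 (−882 bp), were near the edge of the window. On the other side of the edge lay summits at vha-3 (−1050 bp), epg-5 (−1104 bp), bec-1 (−1131 bp), vha-5 (−1151 bp) and lgg-2 (−1163 bp). Distances depend on the annotated 5′ ends. In C. elegans many messages receive a short leader by trans-splicing, directly after an AG, so that the annotated end can be the splice site and not the start of transcription. The annotated 5′ end followed an AG at 16 of 20 V-ATPase genes (80%) and 15 of 24 autophagy genes (62.5%), against 27.6% of all genes. How far this moves the distances was not tested.

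Replicate 1 gave the higher score at 26 of the 28 member summits. Most other peaks went the same way, since over all matched peaks replicate 1 was higher at 9608 and replicate 2 at 1512. All 28 member summits had a summit within 100 bp in both replicate lists. That is no independent check, since the IDR-thresholded list was derived from both. On the log2 scale replicate 1 exceeded replicate 2 by a median of 0.35 (SD 0.49, n = 28), and by 0.35 (SD 0.41) over all matched peaks. The SD was 0.15 for the 10 V-ATPase genes and 0.60 for the 15 autophagy genes, when each was represented by its strongest summit. Without epg-9 the SD of the autophagy genes was 0.21 (n = 14). The difference was widest at epg-9, by 2.47 on the log2 scale, where the peak ranked 7249 in replicate 1 and 20707 in replicate 2. The weaker atg-2 summit was farthest in the other direction (−0.71). Since no label gives the scale of the scores, nothing about occupancy was read from the common shift.

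**Figure D4:**
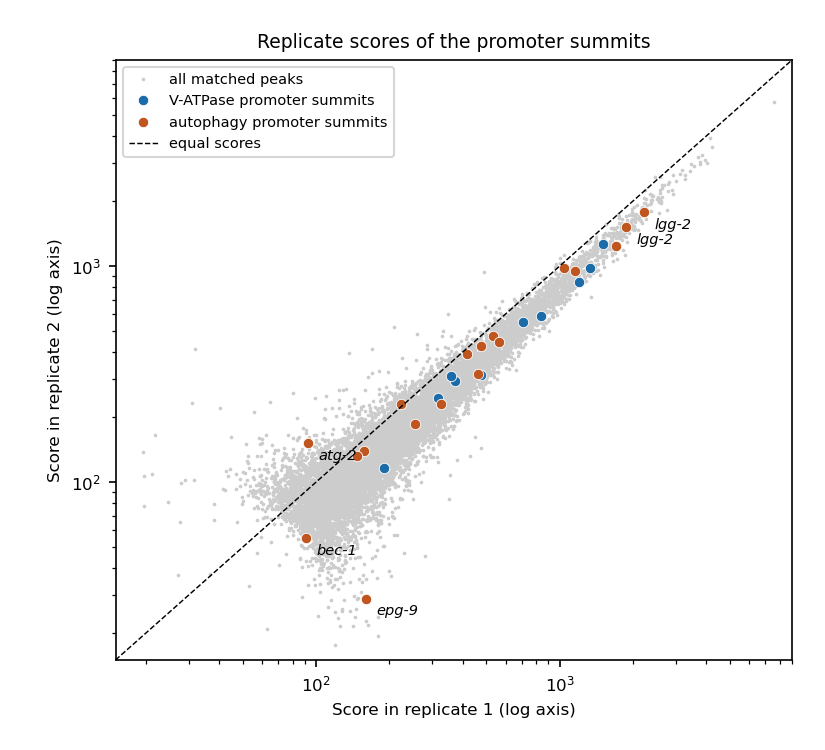
Scores of promoter summits of V-ATPase and autophagy genes in replicate 1 (x axis, log scale) and replicate 2 (y axis, log scale), with all matched peaks of the IDR-thresholded list in grey and a dashed line for equal scores. Of 28 member summits 26 lie below the line, 2 summits of atg-2 lie above it, and epg-9 is the farthest from it.

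Several of the 19 members without a promoter summit lay near a summit of a neighbour. From 5000 bp upstream of the gene to 1000 bp downstream of it, 16 of 20 V-ATPase genes (80%) and 17 of 24 autophagy genes (70.8%) had a summit, against 45.1% of all genes. These shares include the genes with a promoter summit. Among V-ATPase genes without one, summits were near vha-2, vha-3, vha-5, vha-6, vha-7 and vha-11. Among autophagy genes without one, summits were near atg-3 and atg-7 only. The matching share over all genes without a promoter summit was not computed. The ring genes vha-1 and vha-2 are neighbours on the same strand, 400 bp apart, and the vha-1 summit of 1411 lay at −1358 bp of vha-2. In the same way vha-11 lies 892 bp behind vha-3, and a single summit of 846 (replicates 538 and 308) lay at −1050 bp of vha-3 and −2428 bp of vha-11. That summit was in an untranslated exon of the divergent gene Y38F2AL.12. These pairs are known as genes transcribed together, and no operon annotation was used here.

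Upstream neighbours on the same strand, at most 1000 bp away and with a promoter summit of their own, were counted for genes without one. This held for 3 of 10 V-ATPase genes and 2 of 9 autophagy genes, against 6.67% of all genes without a promoter summit. The V-ATPase genes were vha-2, vha-20, which lies 133 bp behind sym-4 (2739), and vha-6, which lies 724 bp behind VW02B12L.2 (446). The autophagy genes were atg-7, 30 bp behind let-70 (2555), and atg-10, 408 bp behind pyr-1 (593). Among genes with a promoter summit the counts were 1 of 10 (vha-13), 1 of 15 (epg-4) and 8.15%. With numbers this small the counts only name the loci. Summits farther off were at vha-7 (1107 at −2932 bp), vha-5 (665 at −1865 bp, with no match in replicate 1) and, behind its gene, at atg-3 (1046 at 2093 bp, in the window of rbm-39).

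The other lists held peaks in some windows that had none in the IDR-thresholded list. At vha-4, a gene of the proteolipid ring, replicate 1 had a peak of 229 at −216 bp (rank 5189 of 25357) and replicate 2 had one of 143 at −226 bp (rank 6637 of 27170), yet neither the pooled nor the IDR-thresholded list had one. Of 17802 replicate 1 peaks matched in replicate 2, 261 (1.47%) likewise overlapped no pooled peak, and of the 5097 with at least the vha-4 score 46 did (0.902%). The cause was not tested. Single replicates had peaks at vha-19 (226 in replicate 2), epg-2 (138 in replicate 1) and vha-6 (45.2 and 24.7, both in replicate 2). Peaks at the other 4 genes were weak. Scores were at most 82.5 at vha-5, 52.0 at vha-2 and 47.8 at vha-20, each in the pooled list, and at most 37.7 at atg-7, in the replicate lists only. No peak of any list lay in the windows of vha-3, vha-7, vha-11 and vha-18, nor in those of atg-3, atg-4.1, atg-4.2, atg-5, atg-10, epg-3 and lgg-3. Thus 4 of 10 V-ATPase genes and 7 of 9 autophagy genes without an IDR-thresholded summit had no peak at all there, against 79.8% of all genes without such a summit. Read depth is unknown, so LIN-14 at these promoters was not detected in these lists and cannot be called absent.

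A further 24 genes of the same route, listed by function, had promoter summits in 11 cases (45.8%), against 23.0% of all genes. Scores ran from 284 to 2138 with a median of 873. The highest were at rab-7, the GTPase of late endosomes (2138, replicates 1122 and 1018, in a window shared with W03C9.5 and mex-1), and at allo-1, an adaptor that targets paternal mitochondria (2095, replicates 1113 and 992). Next came ppk-3, a lipid kinase of lysosomes (1503, replicates 859 and 658), and the lysosomal membrane protein gene lmp-1 (1297, replicates 731 and 569). The transcription factor gene hlh-30 had 4 summits, the strongest with 1276 (replicates 741 and 587), and mxl-3, which is known to oppose HLH-30, had 386. Lower scores were at vps-39 (512), cup-5 (311) and the protease genes cpl-1 (293) and asp-4 (284), and unc-32 is given above. No promoter summit was found at unc-51, vps-34, vps-15, sqst-1, sepa-1, vps-11, vps-16, vps-18, vps-41, snap-29, vamp-7, syx-17 and asp-3. The initiation kinase unc-51 and the lipid kinase vps-34, the enzymes of the complexes described above, were thus without one, as was vps-15, the partner of vps-34. The 5 members in these complexes had one, but bec-1 scored just above the lowest score of the list and the replicates of epg-9 differed widely. Both bec-1 and epg-9 were lost when top peaks in both replicate lists were required.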

How the data were processed

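The deposited files were 4 peak lists in ce11 (WBcel235) coordinates: 1 for each replicate (25357 and 27170 peaks), 1 for both replicates pooled (24683) and 1 IDR-thresholded list (11507) derived from these. The replicate and pooled lists were called against a control, per the deposited README texts. No label or header names the aligner, the caller, their versions or the IDR threshold. The deposited score is the caller's peak strength on an unstated scale. The deposited −log10 q-value has a ceiling of 4.29, reached by 26 of 28 member summits, and was not used. Summits are the deposited offset from the peak start, converted to positions counted from 1. Read depth is unknown.

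Genes and 5′ ends were taken from Ensembl release 115, without 12 mitochondrial genes, and sequence from RefSeq. A peak was matched between lists when summits lay within 100 bp. With 1 group and with members and lists chosen with earlier results of these data known, counts, scores and exact 95% (Clopper-Pearson) intervals are given and no test was made. All members are named by rule, with related genes from a list by function. The method was tested on simulated data with planted peaks. Python 3.11.15, numpy 2.4.6, pandas 2.3.3, scipy 1.17.1 and matplotlib 3.10.9 were used. Alternatives covered the window, assignment, score limit, list, replicates and matching distance.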

Additional observations from a re-analysis of the deposited data

How the results depend on the processing

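Of 46 recomputed values under other settings, 42 stayed within the limits set for stability. The limits were a factor of 1.5 for counts and the replicate spread of 0.35 (log2) for median scores. Both limits were wide, and the spread was taken from all member summits, with epg-9 included. V-ATPase medians of 813 and 1254 stayed within them, as did 7 against 10 V-ATPase genes and 3086 against 4599 of all genes. The 42 values therefore do not show close agreement between settings. The median score of V-ATPase genes moved to 781 with the window from −500 to +100 bp, with the nearest 5′ end within 5000 bp, and with summits in the window of 1 gene only. The median of autophagy genes moved to 992 with peaks at or above the median score. V-ATPase genes with a summit numbered 7 to 14 over all settings and autophagy genes 11 to 16. When 1 replicate was left out, using the 11507 highest scoring peaks of the other, the counts were 11 to 12 of 20 V-ATPase genes, 14 to 16 of 24 autophagy genes and 4702 to 4772 of 19973 genes. These gains were vha-4 with either replicate, vha-19 with replicate 2 and epg-2 with replicate 1, and bec-1 was lost with replicate 2. A requirement for the top peaks of both replicates, added after the data were seen, gave 11, 13 and 4208 genes, with vha-4 gained and bec-1 and epg-9 lost. The 5′-most end alone lost atg-2 and epg-9, and the upper 50% of scores lost vha-10, atg-13, bec-1, epg-6 and epg-9. With matching at 50 bp the summits of 10 V-ATPase and 14 of 15 autophagy genes were matched in both replicates. No paired analysis was possible because there was 1 group and no test. Unknown read depth limits what the missing peaks can show.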

Other observations

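Several members had strong LIN-14 summits that the promoter window did not take in. At epg-9 the summit of 187 in the window was the weakest of 4 near the gene. An intronic summit 1020 bp inside the gene (chromosome IV, peak 2601923 to 2602408) had a score of 3867, rank 74 (replicates 2020.03 and 1872), and another at −1318 bp had 1760.2 (1061 and 701). At lgg-2, which had 5 summits near the gene, a further one at −1163 bp had 1859 (1007 and 839) and also lay in the window of the divergent gene fic-1. A second summit at atg-9, at −1203 bp, had 1236 (683 and 563), and one at −1104 bp of epg-5 had 629 (347 and 281), above the 439.5 of its promoter summit. The gene atg-2 had the most summits near it, 6, with scores from 195 to 586.

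Summits outside the promoter windows were also counted by place. Counted per gene from 5000 bp upstream to 1000 bp downstream, V-ATPase genes had 25 summits, of which 10 were in a promoter window, 12 elsewhere upstream, 3 downstream and 0 elsewhere inside the gene. Autophagy genes had 46, of which 18 were in a window, 13 elsewhere upstream, 9 downstream and 6 elsewhere inside the gene. Those 6 were in epg-9, atg-2, lgg-2 and epg-5. Among the 25 V-ATPase summits, the one near both vha-1 and vha-2 and the one near both vha-3 and vha-11 were counted at each gene. Gene length was not accounted for, and these places were not counted over all genes, so the sets are described only. At vha-13 and vha-8 distant upstream summits of 1892 and 1985 lay in the windows of cept-2 and dyci-1.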
